A study of Bombyx mori with 6 samples.

Results

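The fatty acid genes of the silkworm, Bombyx mori, were compared between fat body libraries labelled siNC and libraries labelled siUFBP1. Members were the gene models that the deposited table places in a KEGG pathway of fatty acid degradation, metabolism, biosynthesis, elongation or unsaturated fatty acid synthesis. Of 102 such models, 22 also listed under branched-chain amino acid breakdown were set aside and none was a cytochrome P450, which left 80 of 16877 gene models. Larvae of the P50 strain on day 3 of instar 5 were injected with 2.5 µg of a negative control small interfering RNA (siNC, 3 libraries) or of one against UFBP1 (siUFBP1, 3 libraries). All larvae of both groups were given the baculovirus BmNPV at 12 h. Fat body was taken at 24, 48 and 72 h after injection, and no label ties a library to a time. The labels also name BmN, an ovary-derived cell line, and describe its transfection, so that the source of the RNA rests on the tissue label. UFBP1 (DDRGK1) is a membrane protein of the endoplasmic reticulum that takes part in UFMylation, the attachment of the small modifier UFM1 to proteins.

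The insect fat body combines roles that vertebrates divide between liver and adipose tissue. It builds fatty acids from acetyl-CoA through acetyl-CoA carboxylase and fatty acid synthase, lengthens them with elongases, inserts double bonds with acyl-CoA desaturases and stores them as triacylglycerol. For use as fuel, fatty acids are coupled to CoA by acyl-CoA synthetases, carried into mitochondria by the carnitine palmitoyltransferases CPT1 and CPT2, and shortened by dehydrogenases, hydratases and thiolases, with a parallel route in peroxisomes that starts with acyl-CoA oxidases.

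Libraries held 25570725 to 53204480 counts. UFBP1 itself (KWMTBOMO13599) did not pass the test of a difference, at 36.5, 31.1 and 34.2 CPM in siNC and 32.7, 34.4 and 34.6 CPM in siUFBP1 (log2 fold change 0.00 ± 0.06, SE; edgeR, adjusted p = 0.951). It passed as lower with upper quartile scaling (-0.14; edgeR, adjusted p = 0.0406) and as higher on library totals, defined below (0.80; edgeR, adjusted p = 1.58e-10). The direction of UFBP1 thus depended on the scaling, and siNC and siUFBP1 below name the libraries as labelled. CPM are counts scaled to a common library size, corrected for composition by the TMM method. Genes of storage proteins, 30 kDa lipoproteins and apolipophorins, the markers of the fat body, took 74.25% to 74.72% of the counts in siNC and 47.65% to 49.13% in siUFBP1. Silk gland genes took 0.04999% to 0.05299% in siNC and 10.12% to 11.76% in siUFBP1, and of 45 testis and sperm flagellum genes 27 were without a count in siNC. For most genes, fold changes below are therefore also given on library totals, a scaling that leaves composition out and moves the median log2 fold change of all genes by 0.80. In bulk tissue, fewer cells of a type and less RNA per cell cannot be told apart. The labels do not say whether the libraries of a group came from separate larvae, and p-values then cover only the spread among the 3 libraries of a group, which may be technical.

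Of the 80 members, 55 passed the filter on low counts. In siUFBP1, 13 of them were higher (23.6%) and 22 lower (40.0%) at an adjusted p under 0.05 in edgeR's quasi-likelihood test, and 20 did not pass. Over all 10729 tested genes, 68.4% were called, 40.0% higher and 28.4% lower. These shares, and those of the other scalings given next, are the background for each count of calls below. The median log2 fold change, siUFBP1 over siNC, was -0.11 for the members and 0.11 for all tested genes. On library totals 46 members were higher and 5 lower, against 80.2% and 4.22% of all genes, and the medians were 0.69 and 0.92. Upper quartile scaling gave 10 higher and 25 lower, against 33.9% and 35.5% of all genes. Of the 55 members, 6 passed the filter through their siUFBP1 reads alone, so that they could hardly be called other than higher, and 5 of the 13 higher calls come from these. A change of at least 2-fold was called for 8 members upward (14.5%, against 22.7% of all genes) and 4 downward (7.27%, against 5.11%). Groups did not overlap for 37 members (67.3%, against 71.2%).

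The call and direction of 15 members held in all 5 scalings compared. Of these, 5 were lower: the acyl-CoA synthetases ACSL4 and bubblegum, CPT1, a fatty acid synthase and an acyl-CoA oxidase 1. They are 9.09% of the tested members, against 4.22% of all genes. The other 10 were higher, 18.2% of the tested members against 33.9% of all genes. They were ACSL5, the mitochondrial enoyl reductase MECR, the thioesterase PPT2, a fatty acid synthase-like gene, 3 desaturases and 3 elongases, and 5 of these last 6 are among those that passed the filter through siUFBP1 alone. In siNC, MECR was the most abundant of these 10 genes per length, at a mean of 4.05 FPKM, the authors' counts scaled to library size and gene length.

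**Figure D1:**
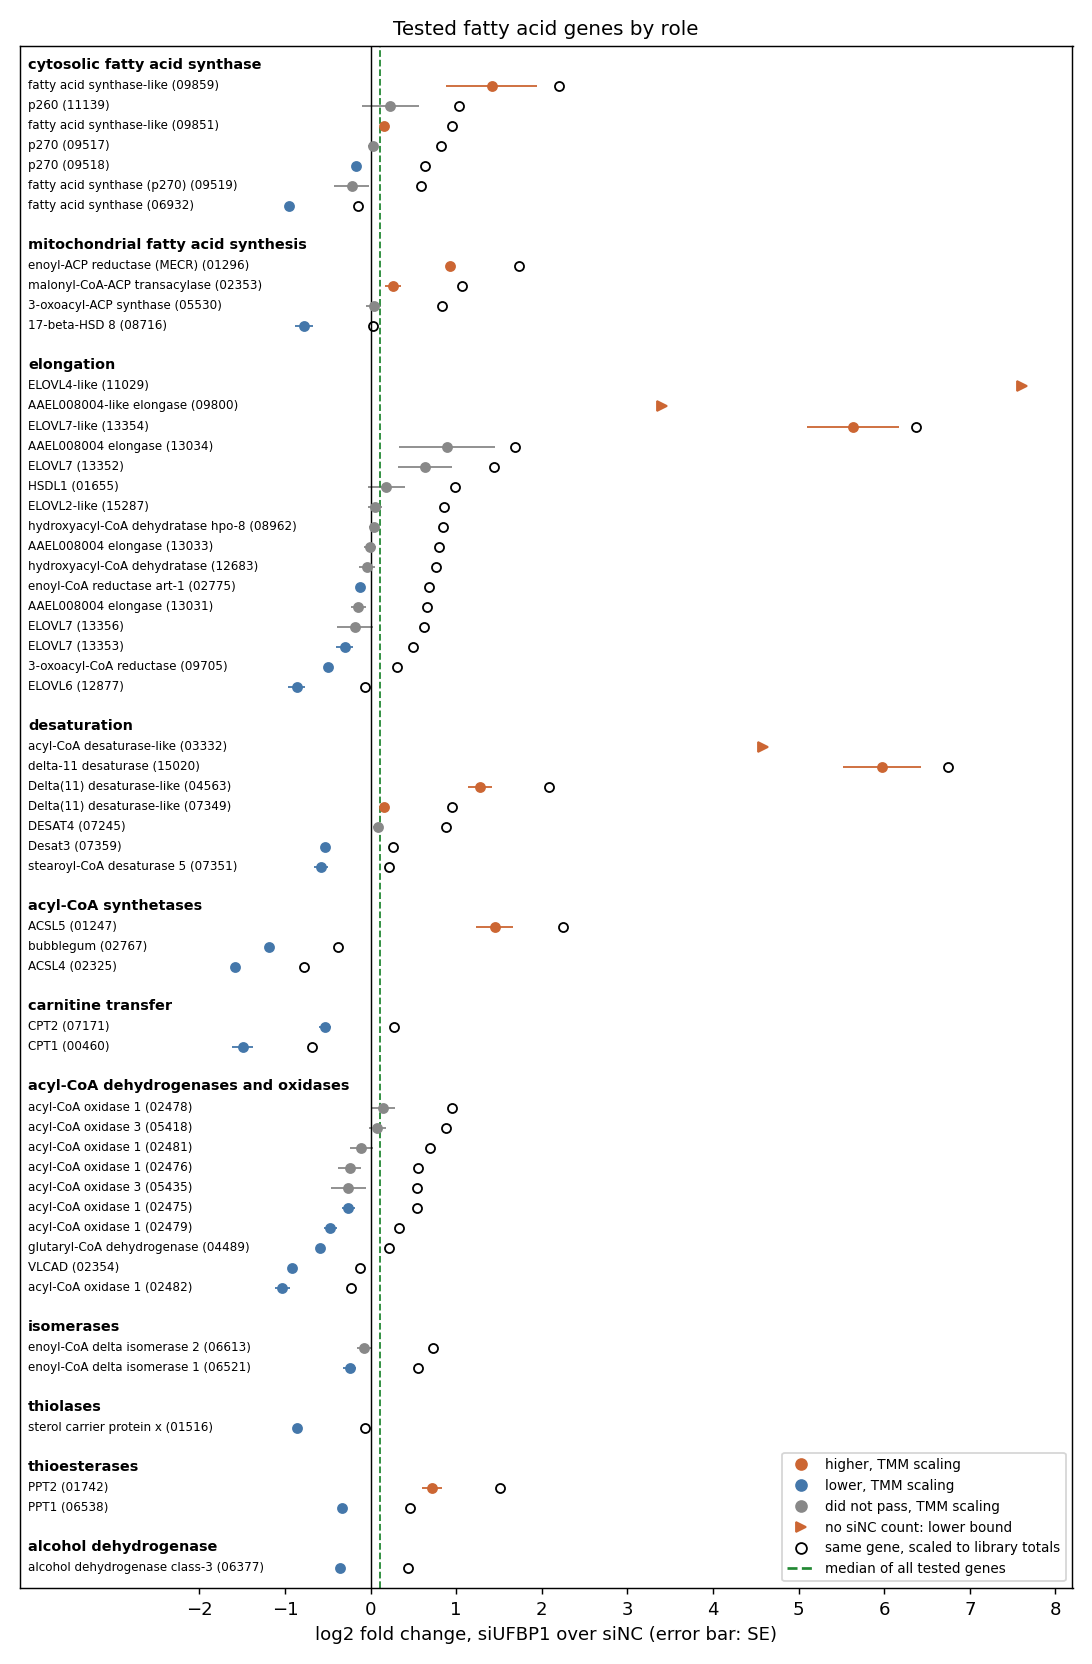
Log2 fold change of each tested member, siUFBP1 over siNC, grouped by role, with the SE as error bar and the last digits of each gene number in brackets. Filled points use TMM scaling, open points library totals, triangles are lower bounds for genes with no siNC count, and the dashed line is the median of all tested genes at 0.11. ACSL4, bubblegum, CPT1, fatty acid synthase KWMTBOMO06932 and acyl-CoA oxidase 1 KWMTBOMO02482 lie below 0 on both scales.

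Cytosolic fatty acid synthesis showed opposite calls among its genes. The multidomain fatty acid synthase builds palmitate from malonyl-CoA, and 14 gene models carried this annotation. Among 7 tested models, 2 were higher, 2 lower and 3 did not pass (median 0.02), whereas on library totals 6 were higher and 1 lower (median 0.82). Fatty acid synthase KWMTBOMO06932, at a mean of 24.1 FPKM over the 6 libraries second among these models to the p270 model KWMTBOMO09517 at 30.4 FPKM, had 273, 297 and 282 CPM in siNC and 151, 145 and 146 CPM in siUFBP1. The groups were far apart relative to their spread. It was 1.93-fold lower, with a log2 fold change of -0.95 ± 0.04 (SE; edgeR, adjusted p = 3.66e-14) that stayed below 0 on library totals (-0.15).

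A second gene, fatty acid synthase-like KWMTBOMO09851, had 49.1, 47.5 and 49.8 CPM in siNC and 54.5, 54.6 and 54.1 CPM in siUFBP1. This small rise (log2 fold change 0.16 ± 0.04, SE; edgeR, adjusted p = 0.00242) did not pass with upper quartile scaling (0.02). The adjacent KWMTBOMO09849, which has the same silkworm gene number, and KWMTBOMO09850 were not tested, with at most 17 counts in a library. KWMTBOMO09859, also fatty acid synthase-like, had 13, 9 and 0 counts in siNC and 42, 32 and 44 in siUFBP1. Its log2 fold change of 1.41 ± 0.53 (SE; edgeR, adjusted p = 0.0249) was lost in DESeq2's Wald test and without siNC library 2 or 3 or siUFBP1 library 1 or 2 (0.87 without siNC library 3, the lowest of these values).

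The remaining fatty acid synthase models belong to 2 silkworm genes named p270 and p260, each split over several models in the table. For p270, KWMTBOMO09518 had a log2 fold change of -0.17 ± 0.04 (SE; edgeR, adjusted p = 0.00184; 0.63 on library totals), whereas KWMTBOMO09517 (0.02) and KWMTBOMO09519 (-0.22) did not pass. Summed over the 3 models, p270 had 86.5, 83.6 and 88.6 CPM in siNC and 80.9, 79.5 and 82.6 CPM in siUFBP1. The summed gene was slightly lower on this scale (log2 fold change -0.09 ± 0.04, SE; edgeR, adjusted p = 0.0439). As a share of all counts the order was the reverse, at 0.00641% to 0.00661% in siNC and 0.0103% to 0.0114% in siUFBP1. Of 6 p260 models (KWMTBOMO11139 to KWMTBOMO11144) only the first was tested, at 0.633 ± 0.196 CPM in siNC against 0.742 ± 0.121 CPM in siUFBP1 (SD over 3 libraries), and it did not pass. The sources used here do not say how the authors' counting treated reads shared by such models or by close copies, or read strand, and values of single models are therefore uncertain.

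The carbon supply upstream of fatty acid synthase was read from genes outside the 80. Acetyl-CoA carboxylase, which makes malonyl-CoA, carries no KEGG entry in the table and is represented by 2 models, named here after their values were seen. KWMTBOMO14073 had 39.0, 46.4 and 43.2 CPM in siNC and 20.8, 19.1 and 17.1 CPM in siUFBP1, with a log2 fold change of -1.19 ± 0.07 (SE; edgeR, adjusted p = 5.51e-11). KWMTBOMO14074 had a log2 fold change of -1.26 ± 0.09 (SE; edgeR, adjusted p = 3.35e-10). Both were lower on library totals too (-0.39 and -0.45). ATP-citrate synthase (KWMTBOMO14536), which releases cytosolic acetyl-CoA from citrate, had 33.7, 36.4 and 32.5 CPM in siNC and 12.0, 10.8 and 10.5 CPM in siUFBP1. Its log2 fold change was -1.64 ± 0.07 (SE; edgeR, adjusted p = 1.31e-13) and -0.83 on library totals. The mitochondrial tricarboxylate carrier (KWMTBOMO09912), which exports citrate, changed by -0.34 (0.46 on library totals). NADP-dependent malic enzyme, a source of NADPH, was higher in both models of that name, KWMTBOMO03522 by 1.36 ± 0.13 and KWMTBOMO03521 by 0.53 ± 0.19 (log2, SE). A far more abundant model of the same list, KWMTBOMO03307, named malate dehydrogenase, had means of 118 CPM in siNC and 114 CPM in siUFBP1. That model did not pass (-0.04 ± 0.03, SE; 0.75 on library totals). The groups of KWMTBOMO03521 overlapped, and its call was lost with upper quartile scaling (0.39; edgeR, adjusted p = 0.0783).

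Mitochondrial fatty acid synthesis is a separate pathway of single-function enzymes that supplies, among other products, the precursor of lipoic acid. All 4 of its models were tested, with 2 higher, 1 lower and 1 not passing, against 3 higher and none lower on library totals. MECR (KWMTBOMO01296), its enoyl reductase, had 23.7, 22.0 and 21.9 CPM in siNC and 42.1, 41.2 and 45.0 CPM in siUFBP1. It was 1.90-fold higher without overlap, with a log2 fold change of 0.93 ± 0.05 (SE; edgeR, adjusted p = 3.42e-11; 1.73 on library totals). Malonyl-CoA-acyl carrier protein transacylase (KWMTBOMO02353) had 7.14, 7.68 and 8.45 CPM in siNC and 9.93, 9.48 and 8.68 CPM in siUFBP1. These neighbouring ranges gave a log2 fold change of 0.26 ± 0.09 (SE; edgeR, adjusted p = 0.0207), which did not pass with upper quartile scaling (0.12). The 17-beta-hydroxysteroid dehydrogenase 8 gene (KWMTBOMO08716), whose human counterpart is part of the ketoacyl reductase of this pathway, changed by -0.78 ± 0.11 (SE; 0.03 on library totals), and 3-oxoacyl-acyl carrier protein synthase (KWMTBOMO05530) did not pass (0.04 ± 0.09, SE).

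Elongation is carried out in the endoplasmic reticulum by a cycle in which an ELOVL enzyme condenses the chain with malonyl-CoA and a ketoreductase, a dehydratase and an enoyl reductase complete the step. Of 16 tested members of this group, 3 were higher, 4 lower and 9 did not pass (median 0.02), whereas on library totals 15 were higher and none lower (median 0.82). The enzymes that complete the cycle had log2 fold changes between -0.50 and 0.05. HSDL1 (KWMTBOMO01655), annotated as an inactive hydroxysteroid dehydrogenase-like protein, is also counted in this group and did not pass (0.18 ± 0.22, SE). The enoyl reductase art-1 (KWMTBOMO02775, named after the Caenorhabditis elegans gene) had 89.1, 86.2 and 86.5 CPM in siNC and 79.0, 77.9 and 83.6 CPM in siUFBP1. Its log2 fold change was -0.12 ± 0.04 (SE; edgeR, adjusted p = 0.0115) and 0.68 on library totals. The ketoreductase KWMTBOMO09705 fell by 0.50 ± 0.05 on the log2 scale (SE; edgeR, adjusted p = 5.21e-08) and was at 0.30 on library totals. The dehydratases KWMTBOMO08962 and KWMTBOMO12683 had log2 fold changes of 0.05 ± 0.06 and -0.04 ± 0.09 (SE) and did not pass.

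The ELOVL elongases, which set chain length, comprised 16 models, of which 8 neighbour each other in the RefSeq gene order. Of 11 tested, 3 were higher, 2 lower and 6 did not pass, against 10 higher and none lower on library totals. ELOVL6 (KWMTBOMO12877), in mammals the elongase of palmitate, had 13.5, 14.4 and 14.3 CPM in siNC and 7.38, 6.46 and 8.84 CPM in siUFBP1. The lowest siNC value exceeded the highest siUFBP1 value. Its log2 fold change was -0.86 ± 0.10 (SE; edgeR, adjusted p = 4.71e-07), and on library totals it was -0.06 and no longer passed. ELOVL7 (KWMTBOMO13353) had 7.98, 7.31 and 7.32 CPM in siNC and 6.44, 5.80 and 6.09 CPM in siUFBP1, a log2 fold change of -0.30 ± 0.10 (SE; edgeR, adjusted p = 0.0102; 0.50 on library totals). The most abundant elongases per length were ELOVL2-like KWMTBOMO15287 and KWMTBOMO13033, at means of 12.2 and 8.54 FPKM over the 6 libraries. Neither passed, with log2 fold changes of 0.05 ± 0.08 and 0.00 ± 0.07 (SE), but both were called higher on library totals (0.86 and 0.80).

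The 3 higher elongases were nearly without reads in siNC, and their direction follows from the filter, which they passed through siUFBP1 alone. ELOVL4-like KWMTBOMO11029 had no count in any siNC library and 337, 256 and 657 counts in siUFBP1, or 9.90, 7.73 and 8.94 CPM. Set against a floor of 3 counts over the siNC group, it was at least 195-fold higher (edgeR, adjusted p = 1.35e-12). The other two were named after their values were seen. KWMTBOMO09800 had 0 counts in siNC and 19, 13 and 36 counts in siUFBP1, at least 10.6-fold higher by the same floor (edgeR, adjusted p = 4.1e-05). ELOVL7-like KWMTBOMO13354, from the row of 8 neighbours, had 2, 0 and 0 counts in siNC and 50, 59 and 129 counts in siUFBP1, a ratio of 55.9 with a 95% exact binomial interval of 15.3 to 464.0 that covers counting error only. Its neighbours KWMTBOMO13352 and KWMTBOMO13356 had 0.600 and 1.63 CPM in siNC and 0.920 and 1.46 CPM in siUFBP1 and did not pass, and the 4 untested models of the row had at most 17 counts in a library.

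Desaturation was led by a single gene. Desat3 (KWMTBOMO07359) was the most abundant of the 80 members per length, at 642, 667 and 641 FPKM in siNC and 749, 757 and 803 FPKM in siUFBP1. On the TMM scale it had 1150.0, 1174 and 1165 CPM in siNC and 802, 804 and 803 CPM in siUFBP1. The order of the groups thus depended on the scaling: the log2 fold change was -0.53 ± 0.03 (SE; edgeR, adjusted p = 1.95e-12) and 0.26 on library totals. The next desaturase by level, DESAT4 (KWMTBOMO07245), had 42.8, 42.7 and 35.9 CPM in siNC and 44.1, 42.2 and 42.9 CPM in siUFBP1, and did not pass (0.09 ± 0.06, SE). A row of 4 neighbouring desaturases held KWMTBOMO07349, at 0.15 ± 0.06 (SE; edgeR, adjusted p = 0.0266; not passing with upper quartile scaling), and stearoyl-CoA desaturase 5 (KWMTBOMO07351), at -0.58 ± 0.08 (SE; edgeR, adjusted p = 4.49e-06; 0.21 on library totals). The other two of the row had at most 6 counts in a library.

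Delta(11)-desaturases make precursors of sex pheromones in moths. Of the 18 desaturase models 11 were too scarce to be tested, and of those described next KWMTBOMO15020 and KWMTBOMO03332 passed the filter through siUFBP1 alone. Delta(11) desaturase-like KWMTBOMO04563 had 1.91, 2.09 and 1.83 CPM in siNC and 4.88, 4.50 and 4.82 CPM in siUFBP1. It was 2.43-fold higher, with a log2 fold change of 1.28 ± 0.14 (SE; edgeR, adjusted p = 2.32e-07; 2.08 on library totals). The delta-11 desaturase KWMTBOMO15020 had 0, 4 and 0 counts in siNC and 170, 103 and 293 counts in siUFBP1, a log2 fold change of 5.97 ± 0.45 (SE; edgeR, adjusted p = 1.3e-09). Acyl-CoA desaturase-like KWMTBOMO03332, named after its values were seen, had 0 counts in siNC and 32, 34 and 95 counts in siUFBP1, at least 23.9-fold higher (edgeR, adjusted p = 4.41e-07).

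Some markers of other tissues also stood higher in siUFBP1, where 40.0% of all tested genes were higher and 28.4% lower. Silk gland genes were higher for 5 of 6 tested models with none lower, testis and sperm flagellum genes for 20 of 21 with 1 lower, cuticle and epidermis genes for 40 of 48 with 1 lower, muscle genes for 11 of 12 with 1 lower, and midgut genes for 15 of 23 with 7 lower. Of these higher calls, 17 testis, 13 midgut, 5 cuticle, 2 muscle and 1 silk gland came from genes that passed the filter through siUFBP1 alone. Testis genes took 0.000715% to 0.000775% of the counts in siNC and 0.0394% to 0.0475% in siUFBP1, cuticle genes 0.0439% to 0.0441% and 0.194% to 0.210%, and muscle genes 0.0491% to 0.0518% and 0.252% to 0.269%. For midgut genes the share went from 0.221% to 0.227% in siNC to 0.252% to 0.271% in siUFBP1, whereas their summed level on the TMM scale was lower, at 2945 ± 25.1 CPM against 1973 ± 12.6 CPM (SD over 3 libraries). The CYP4G genes that mark oenocytes, cells that make cuticular hydrocarbons, were higher for 2 of 2 (1 of 2 with upper quartile scaling), at 0.00143% to 0.00153% and 0.00400% to 0.00453%. Hemocyte markers gave 3 higher and 11 lower of 18 tested, against 10 higher and 4 lower on library totals, with shares of 0.0188% to 0.0198% in siNC and 0.0233% to 0.0244% in siUFBP1. Ovary markers gave 1 higher and 3 lower of 9, against 5 higher and none lower on library totals, with shares of 0.00506% to 0.00516% and 0.00670% to 0.00731%. In siNC, 3 of 9 silk gland, 102 of 168 cuticle, 5 of 17 muscle and 49 of 82 midgut genes were without a count. The part of these tissues in the levels of the scarce elongases and desaturases was not tested.

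**Figure D2:**
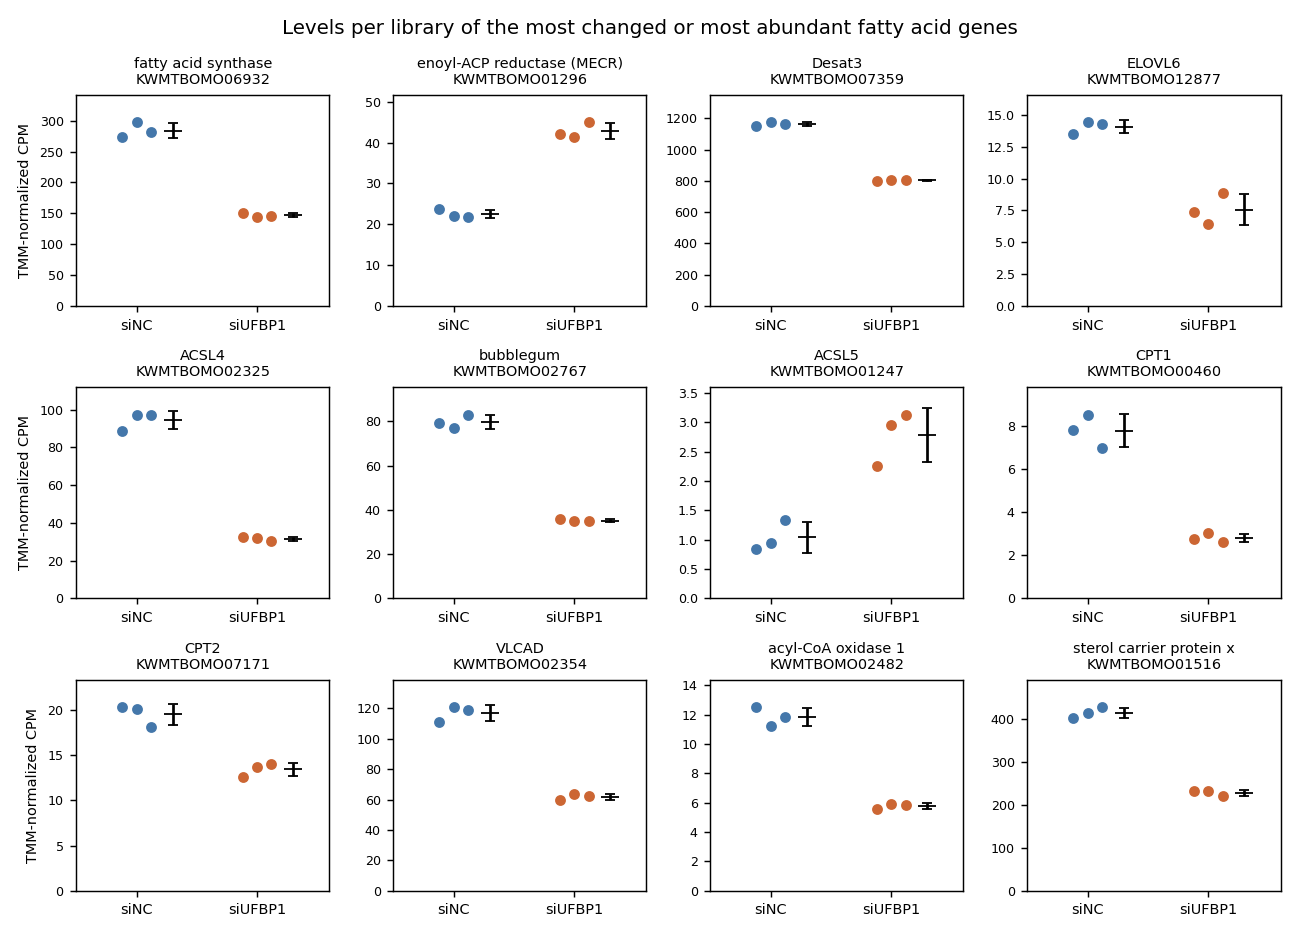
TMM-normalized CPM (linear axes from 0) of selected members in each of the 3 siNC and 3 siUFBP1 libraries, with the group mean and SD beside the points. In every panel the groups are separate, with MECR and ACSL5 higher in siUFBP1 and the other genes lower, of which Desat3 and CPT2 turn to log2 fold changes of 0.26 and 0.27 on library totals.

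Fatty acid activation held calls in both directions. The members include 3 acyl-CoA synthetases, all called at 2-fold or more. A further model of that name, KWMTBOMO12118, is among the rows set aside. It was lower by less (-0.47 ± 0.09, SE) and stood at 0.33 on library totals. ACSL4 (KWMTBOMO02325), a long-chain acyl-CoA synthetase that in mammals prefers polyunsaturated chains, had 88.8, 97.1 and 97.2 CPM in siNC and 32.6, 31.7 and 30.4 CPM in siUFBP1. With a 2.99-fold difference it had the largest decrease among the tested members on the TMM scale, a log2 fold change of -1.58 ± 0.05 (SE; edgeR, adjusted p = 1.06e-15; -0.78 on library totals). Bubblegum (KWMTBOMO02767), in the fruit fly a synthetase for very long chains, had 79.2, 77.2 and 83.0 CPM in siNC and 35.9, 34.8 and 34.9 CPM in siUFBP1. It was 2.27-fold lower, at -1.18 ± 0.04 (SE; edgeR, adjusted p = 2.05e-14; -0.38 on library totals). ACSL5 (KWMTBOMO01247), a scarce long-chain synthetase, had 0.839, 0.944 and 1.34 CPM in siNC and 2.26, 2.96 and 3.13 CPM in siUFBP1. It rose in every scaling, by 1.45 ± 0.22 on the log2 scale (SE; edgeR, adjusted p = 1.06e-05).

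Carnitine transfer, the entry of long-chain acyl groups into mitochondria, was lower at both steps on the TMM scale. CPT1 (KWMTBOMO00460), the regulated outer-membrane step that malonyl-CoA inhibits, had 7.79, 8.50 and 6.97 CPM in siNC and 2.73, 3.02 and 2.63 CPM in siUFBP1. It was 2.78-fold lower, with a log2 fold change of -1.49 ± 0.12 (SE; edgeR, adjusted p = 3.57e-09; -0.69 on library totals). The authors' deposited table gives CPT1 a log2 fold change of -1.49. CPT2 (KWMTBOMO07171), the inner-membrane step, had 20.2, 20.0 and 18.1 CPM in siNC and 12.6, 13.7 and 14.0 CPM in siUFBP1. Its log2 fold change of -0.53 ± 0.07 (SE; edgeR, adjusted p = 1.95e-06) turned to 0.27 on library totals.

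Ratios between members within a library carry no scaling between libraries. The ratio of CPT1 to CPT2, in FPKM, was 0.251, 0.277 and 0.252 in siNC and 0.142, 0.144 and 0.123 in siUFBP1. That of ACSL4 to ACSL5 was 95.9, 94.6 and 68.2 in siNC and 13.1, 9.72 and 8.80 in siUFBP1. Both ratios were lower in each siUFBP1 library than in any siNC library. Fatty acid synthase KWMTBOMO06932 over the synthase-like KWMTBOMO09851 went from 5.00 ± 0.328 to 2.32 ± 0.0486, and Desat3 (KWMTBOMO07359) over KWMTBOMO07349 from 71.4 ± 1.83 to 44.2 ± 0.314 (siNC to siUFBP1, SD over 3 libraries). The last ratio, of 2 acyl-CoA oxidase copies, is given with those genes, and all 5 ratios were chosen after values were seen. None overlapped between the groups, and each had a two-sided exact permutation p of 0.1, the smallest that 3 against 3 libraries can give (0.1 after adjustment over the 5).

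**Figure D3:**
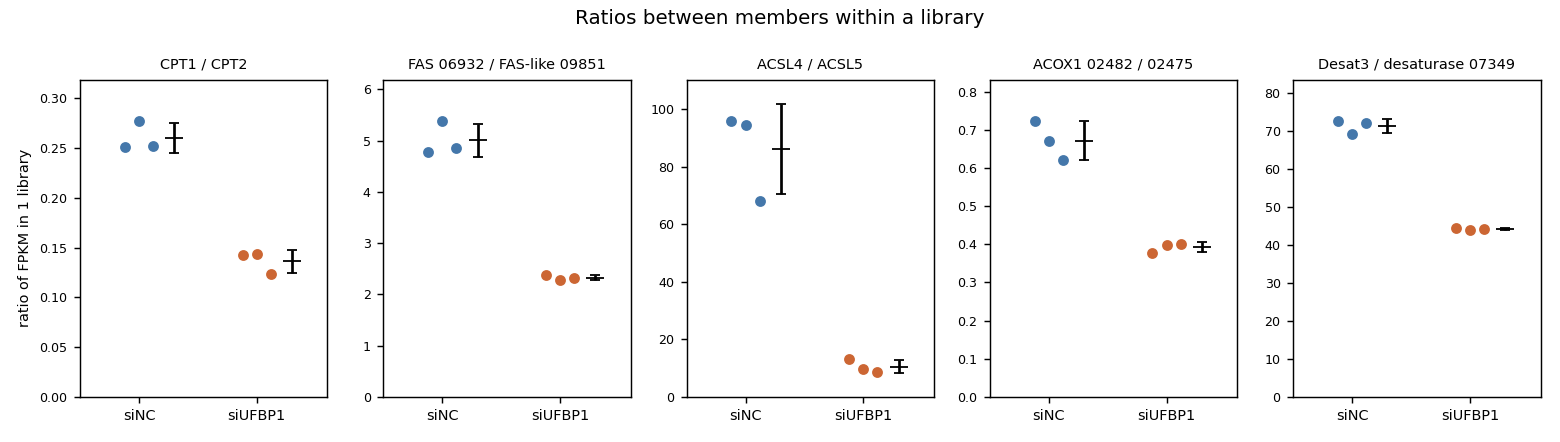
Ratio of the FPKM of 2 members within each library, with the group mean and SD beside the points and each axis starting at 0. All 5 ratios are lower in the 3 siUFBP1 libraries, for example 0.26 in siNC and 0.136 in siUFBP1 for CPT1 over CPT2.

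On the TMM scale the first oxidation step was lower or did not pass. Among the 10 acyl-CoA dehydrogenases and oxidases tested, 5 were lower and 5 did not pass (median -0.26), whereas on library totals 8 were higher and 1 lower (median 0.54). Further acyl-CoA dehydrogenases are among the rows set aside. KWMTBOMO00375, named as medium-chain, and KWMTBOMO13923, named without a chain length, were lower (-0.48 and -0.37), and the short-chain KWMTBOMO09817 did not pass (-0.11). On library totals these were at 0.32, 0.42 and 0.69. The very long-chain acyl-CoA dehydrogenase VLCAD (KWMTBOMO02354), the first enzyme of mitochondrial beta-oxidation of long chains, had 111, 121 and 119 CPM in siNC and 59.5, 63.5 and 62.4 CPM in siUFBP1. It was 1.89-fold lower, at -0.92 ± 0.04 (SE; edgeR, adjusted p = 5.65e-13), but at -0.12 and not passing on library totals. Glutaryl-CoA dehydrogenase (KWMTBOMO04489), an enzyme of lysine and tryptophan breakdown, changed by -0.59 ± 0.03 (SE; edgeR, adjusted p = 1.24e-11; 0.21 on library totals).

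Peroxisomal oxidation was represented by 7 acyl-CoA oxidase 1 models that neighbour each other in the RefSeq gene order and by 2 acyl-CoA oxidase 3 models. The models differed in call, and KWMTBOMO02475 and KWMTBOMO02476 carry the same silkworm gene number. KWMTBOMO02482 had 12.5, 11.2 and 11.8 CPM in siNC and 5.58, 5.95 and 5.84 CPM in siUFBP1, 2.05-fold lower at -1.03 ± 0.09 (SE; edgeR, adjusted p = 6.12e-09; -0.23 on library totals). KWMTBOMO02475, the most abundant of these models per length at a mean of 6.63 FPKM, had 11.9, 11.5 and 13.1 CPM in siNC and 10.1, 10.3 and 9.98 CPM in siUFBP1. Its log2 fold change was -0.26 ± 0.08 and that of KWMTBOMO02479 was -0.47 ± 0.07 (SE), both called and both above 0 on library totals (0.54 and 0.33). The models KWMTBOMO02476, KWMTBOMO02478 and KWMTBOMO02481 did not pass, at -0.24, 0.15 and -0.11, and KWMTBOMO02480 had at most 10 counts in a library. Summed over KWMTBOMO02475 and KWMTBOMO02476, their gene was lower (log2 fold change -0.26 ± 0.07, SE; edgeR, adjusted p = 0.00216). On library totals both of its models were above 0 (0.54 and 0.56). The ratio of KWMTBOMO02482 to KWMTBOMO02475 went from 0.672 ± 0.0505 to 0.392 ± 0.0127 (siNC to siUFBP1, SD over 3 libraries). Acyl-CoA oxidase 3 (KWMTBOMO05418 and KWMTBOMO05435) did not pass, with log2 fold changes of 0.08 ± 0.10 and -0.26 ± 0.20 (SE).

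Later steps were held by few members. Sterol carrier protein x (KWMTBOMO01516), a peroxisomal thiolase with a sterol carrier domain, had 402, 412 and 426 CPM in siNC and 231, 233 and 220 CPM in siUFBP1. It was 1.82-fold lower, at -0.86 ± 0.03 (SE; edgeR, adjusted p = 5.69e-14), and at -0.06 and not passing on library totals. Enoyl-CoA delta isomerase 1 (KWMTBOMO06521), which prepares unsaturated chains for oxidation, changed by -0.25 ± 0.08 (SE; 0.56 on library totals), and isomerase 2 (KWMTBOMO06613) did not pass (-0.07 ± 0.08). The rows set aside as branched-chain amino acid genes include acyl-CoA dehydrogenases, hydratases, hydroxyacyl-CoA dehydrogenases and thiolases of beta-oxidation. Aldehyde dehydrogenases and other models stand there too, so that counts of these rows are not of beta-oxidation alone. The largest decrease among them was that of an aldehyde dehydrogenase (KWMTBOMO07147, -1.53 ± 0.03, SE, and -0.73 on library totals). All 22 were tested, with 21 lower and none higher (median -0.70), against 28.4% and 40.0% of all tested genes. On library totals 8 were higher and 5 lower, against 80.2% and 4.22%. The alpha and beta subunits of the electron transfer flavoprotein, which takes electrons from the dehydrogenases, and the ubiquinone oxidoreductase that receives them from it were lower (KWMTBOMO02914, KWMTBOMO15066 and KWMTBOMO08461, at -0.74, -0.73 and -0.70), and none of the 3 passed on library totals.

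By pathway, the 18 tested members listed under fatty acid degradation gave 1 higher and 11 lower (median -0.31). The 14 tested members under biosynthesis gave 5 higher and 5 lower (median 0.03), with models that stand in both counted in both. Over all tested genes 40.0% were higher and 28.4% lower (median 0.11). On library totals the degradation members gave 13 higher and 4 lower and the biosynthesis members 10 higher and 3 lower, against 80.2% and 4.22% of all genes. The remaining members act on fatty acids less directly. Palmitoyl-protein thioesterase PPT1 (KWMTBOMO06538), a lysosomal enzyme that removes palmitate from proteins, had a log2 fold change of -0.33 ± 0.03 (SE; 0.46 on library totals). Its relative PPT2 (KWMTBOMO01742) had 3.68, 3.74 and 3.41 CPM in siNC and 5.50, 6.10 and 6.16 CPM in siUFBP1, a rise of 0.72 ± 0.12 on the log2 scale (SE; edgeR, adjusted p = 2.68e-05; 1.52 on library totals). Class-3 alcohol dehydrogenase (KWMTBOMO06377), which also clears formaldehyde, was the second most abundant member, at 347 ± 8.71 FPKM in siNC against 464 ± 16.3 FPKM in siUFBP1 (SD over 3 libraries), with a log2 fold change of -0.36 ± 0.03 on the TMM scale (SE) and 0.44 on library totals. A Pol polyprotein model (KWMTBOMO14559), transposon-like by its product name, had at most 4 counts in a library.

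**Figure D4:**
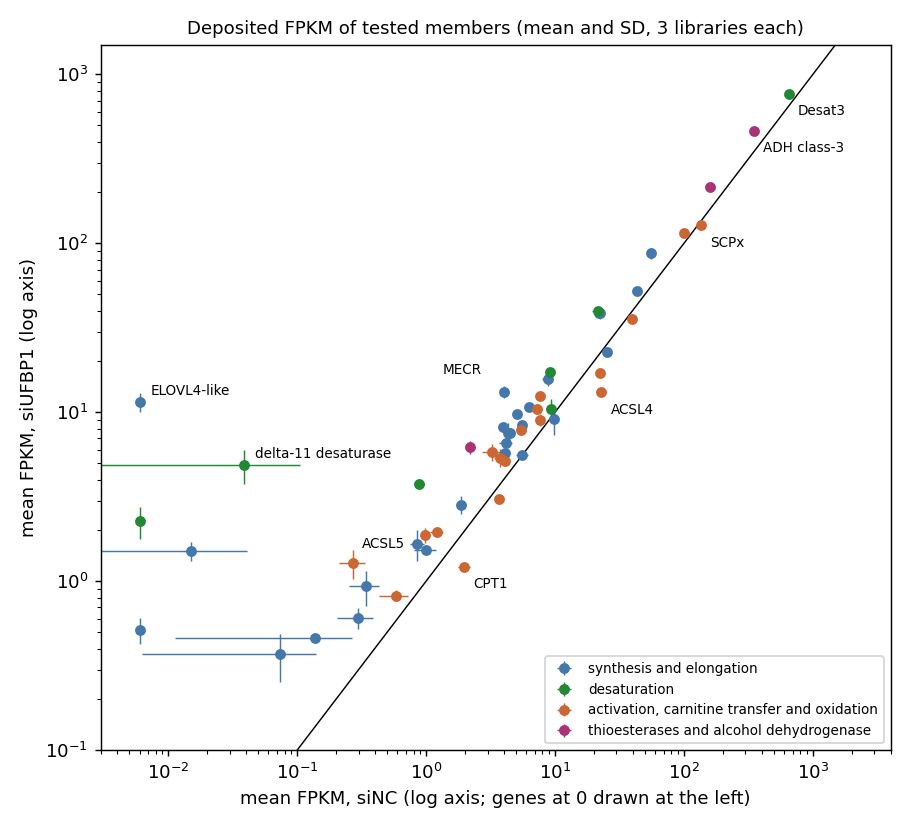
Mean deposited FPKM of the 55 tested members in siNC and siUFBP1 on log axes, with the SD over 3 libraries as error bars and genes at 0 in siNC drawn at the left edge. In FPKM, which carry no correction for composition, 47 members lie above the diagonal and 8 below it, among them ACSL4 and CPT1.

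Per length, 5 members had a mean above 100 FPKM (Desat3, class-3 alcohol dehydrogenase, PPT1, sterol carrier protein x and glutaryl-CoA dehydrogenase), and 38 of the tested members had a mean under 10 FPKM. Together the 80 models took 0.297% to 0.307% of the counts in siNC and 0.360% to 0.390% in siUFBP1. On the TMM scale the order was the reverse, at a summed 3960.0 ± 50.8 CPM in siNC and 2818 ± 5.72 CPM in siUFBP1 (SD over 3 libraries). Of the 25 models that were not tested, 5 had no count in any library, 10 had counts in siUFBP1 only, and none exceeded 25 counts in a library. The authors' deposited table gives a fold change for 50 of the 80 members, and all 50 have the sign found here on the TMM scale.

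Genes that handle fatty acids outside the 80 were counted by role. The receptor for adipokinetic hormone, which signals the fat body to release stored lipid, was lower in both of its models. KWMTBOMO11286 had 42.3, 41.3 and 43.3 CPM in siNC and 13.0, 11.7 and 12.0 CPM in siUFBP1, at -1.79 ± 0.06 (SE; edgeR, adjusted p = 3.28e-15), and KWMTBOMO11288 was at -1.64 ± 0.06 (SE). These 2 stayed lower on library totals (-0.99 and -0.84), and hormone-sensitive lipase (KWMTBOMO11026) did not pass (-0.06 ± 0.18). Where 40.0% of all tested genes were higher and 28.4% lower, triacylglycerol storage genes gave 3 higher and 11 lower of 15 tested (median -0.52). On library totals, where these shares were 80.2% and 4.22%, the storage genes gave 10 higher and 2 lower. The 2 were mitochondrial glycerol-3-phosphate acyltransferase 1 (KWMTBOMO15589, -1.20 ± 0.05, SE; -0.40 on library totals), the first step of glycerolipid synthesis, and the acyltransferase KWMTBOMO13027 (-1.09 ± 0.05, SE; -0.29 on library totals). Perilipin (KWMTBOMO03244), a coat protein of lipid droplets, changed by -0.68 ± 0.03 (SE; 0.12 on library totals). The 3 higher storage models, KWMTBOMO02683, KWMTBOMO02685 and KWMTBOMO08793, were scarce in siNC, with at most 20 counts in a library.

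Lipid transport in the hemolymph, which relies on apolipophorins made by the fat body, was lower for 6 of 6 tested models (median -1.03) and for 6 of 6 on library totals (median -0.23). Of all tested genes, 28.4% were lower, and 4.22% on library totals. Besides apolipophorins the list holds a microsomal triglyceride transfer protein and a lipophorin receptor. KWMTBOMO16269 and KWMTBOMO16270 of this list carry the same uncharacterized product name and may be parts of a single gene. Apolipophorin (KWMTBOMO15892) had 4970.0, 5101 and 5227 CPM in siNC and 2629, 2658 and 2588 CPM in siUFBP1, at -0.96 ± 0.03 (SE; edgeR, adjusted p = 9.08e-16). Some of these genes are also among the fat body markers, of which 30 of 39 tested were lower and 1 higher (median -0.96), against 17 lower and 12 higher on library totals (median -0.16). On the TMM scale most fat body markers thus moved with the lower members, and their part in those members' levels was not tested.

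Regulators of lipid synthesis gave 5 higher and 3 lower of 11 tested, against 10 higher and none lower on library totals. SREBP (KWMTBOMO07843), the transcription factor that in mammals activates lipogenic genes, had 17.6, 16.9 and 18.0 CPM in siNC and 31.4, 30.3 and 32.1 CPM in siUFBP1. It rose by 0.84 ± 0.06 on the log2 scale (SE; edgeR, adjusted p = 2.04e-10), and the site-1 (KWMTBOMO00388) and site-2 (KWMTBOMO13584) proteases that release it rose by 1.09 ± 0.22 and 1.19 ± 0.10 (SE). The SREBP cleavage-activating protein (KWMTBOMO00476), with 5, 12 and 2 counts in siNC, did not pass (0.47 ± 0.51, SE). Hepatocyte nuclear factor 4 (KWMTBOMO11408) was lower (-0.41 ± 0.12, SE, and 0.39 on library totals), and E75 (KWMTBOMO05671) did not pass (0.11 ± 0.05, SE). The AMP-activated protein kinase subunits, which restrain lipid synthesis, were called both ways or did not pass. The most abundant model, a gamma subunit (KWMTBOMO02045), changed by -0.21 ± 0.04 (SE; 0.59 on library totals). Another gamma model (KWMTBOMO00501) changed by -0.60 ± 0.10 (SE; 0.21 on library totals). The beta subunit (KWMTBOMO07242) changed by 0.63 ± 0.11, and the catalytic alpha subunit (KWMTBOMO09819) did not pass (0.08 ± 0.15, SE). Fatty acyl-CoA reductases, which make fatty alcohols for waxes, gave 10 higher and 6 lower of 21 tested, and 19 higher and 1 lower on library totals. Of the higher models, KWMTBOMO05607, KWMTBOMO14223 and KWMTBOMO14250 had 0 siNC counts and could hardly be called otherwise. KWMTBOMO14100, KWMTBOMO14130, KWMTBOMO14192, KWMTBOMO14220 and KWMTBOMO14221 had at most 6 in a siNC library. KWMTBOMO14197 (82, 65 and 64 siNC counts) rose by 2.19 ± 0.11 (SE). The most abundant models by CPM, KWMTBOMO14205, KWMTBOMO14193 and KWMTBOMO14199, were called lower (-0.16, -0.33 and -0.42) and stood at 0.64, 0.47 and 0.38 on library totals. Binding proteins for fatty acids and acyl-CoA gave 3 higher and 2 lower of 6 tested, 6 higher and none lower on library totals, and 1 higher and 2 lower with upper quartile scaling, with acyl-CoA-binding protein (KWMTBOMO05950) at -0.38 ± 0.03 (SE; 0.42 on library totals). Of the higher binding proteins, KWMTBOMO09718 had 0 counts in siNC and could hardly be called otherwise. KWMTBOMO09721, also higher, had 8, 5 and 0 counts in siNC and 16, 14 and 44 in siUFBP1.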

How the data were processed

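The deposited table holds raw read counts per gene model for 6 libraries, per the file headers, and FPKM, which the authors computed per gene length and depth, as the column names of the deposited table say. The submitters' processing notes name fastp, a trimmer, and HISAT2, an aligner. Which counter and which build of the genome were used, and how strand and shared reads were handled, is not given in the sources here. The table also holds the authors' own comparison, deposited as log2 fold changes and adjusted p-values. Groups and replicate numbers came from sample titles.

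Counts were tested with edgeR 4.0.16 in R 4.3.3 (filterByExpr, TMM, quasi-likelihood test, group as the only term, Benjamini-Hochberg over 10729 genes, calls at 0.05). The filter left out 6148 models with 0.0479% of the counts. In siNC the TMM factors ran from 0.746 to 0.767, and in siUFBP1 from 1.28 to 1.38. The SE of a log2 fold change is its absolute value divided by the square root of F. A floor of 3 counts is 0.0564 to 0.117 CPM per library; floors and intervals cover counting error only. Replicates differed beyond sampling noise (chi-square per degree of freedom 2.70 to 14.8). The fit was tested on simulated data.

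Members and gene lists were chosen with earlier results of these data known. Mitochondrial synthesis was set apart, and acetyl-CoA carboxylase added, after product names were read. Text names, within each role, the 5 members with the highest mean FPKM and the 3 largest called changes each way among those with at least 1 CPM. It also names all annotated fatty acid synthase, transacylase and carnitine palmitoyltransferase models and the most abundant genes of other lipid lists. Further genes outside this rule are printed, only some of them marked where they stand. Unmarked ones include KWMTBOMO03521, KWMTBOMO03522, KWMTBOMO00388, KWMTBOMO13584, KWMTBOMO07242, KWMTBOMO00501 and KWMTBOMO09819. Not every gene the rule gives is printed. Of the members, 75 carry a silkworm gene number (65 distinct), all found in the RefSeq table of assembly ASM3026992v2, used only for names and gene order. Sequences were not used here. Alternatives were DESeq2 1.42.0 size factors and Wald test, upper quartile scaling, library totals with no composition factor, TMM without silk gland, storage and 30 kDa genes (these with TMM make the 5 scalings), omitting the filter or asking for a mean count of 10, limma 3.58.1 (voom, and trend on log2 FPKM with a pseudocount of 1 or 0.1), a block for replicate number, dropping 1 library at a time, a minimum change of 2-fold and, added after seeing the data, summing models of 1 silkworm gene.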

Additional observations from a re-analysis of the deposited data

How the results depend on the processing

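Scaling decided direction for many members. The counts of 4293 higher and 3043 lower genes, and of 13 higher and 22 lower members, became 8603, 453, 46 and 5 on library totals. Limma-trend on log2 FPKM, which also carries no composition factor, gave 6625, 406, 37 and 5 with a pseudocount of 1, 6601, 406, 37 and 5 with 0.1, and 9111, 479, 47 and 5 with no filter. A 2-fold minimum left 2436, 548, 8 and 4. On library totals 13 members called lower were called higher, with log2 fold changes of KWMTBOMO02475 0.54, KWMTBOMO02479 0.33, KWMTBOMO02775 0.68, KWMTBOMO04489 0.21, KWMTBOMO06377 0.44, KWMTBOMO06521 0.56, KWMTBOMO06538 0.46, KWMTBOMO07171 0.27, KWMTBOMO07351 0.21, KWMTBOMO07359 0.26, KWMTBOMO09518 0.63, KWMTBOMO09705 0.30, KWMTBOMO13353 0.50. Limma-trend turned 12 of them, with pseudocounts of 1 and 0.1 respectively, at KWMTBOMO02475 0.45 and 0.51, KWMTBOMO02479 0.26 and 0.31, KWMTBOMO02775 0.65 and 0.66, KWMTBOMO04489 0.19 and 0.19, KWMTBOMO06377 0.42 and 0.42, KWMTBOMO06521 0.48 and 0.53, KWMTBOMO06538 0.44 and 0.44, KWMTBOMO07171 0.22 and 0.24, KWMTBOMO07359 0.24 and 0.24, KWMTBOMO09518 0.53 and 0.60, KWMTBOMO09705 0.28 and 0.29, KWMTBOMO13353 0.40 and 0.47, and the values with no filter equalled those with 1. Leaving out 1 library at a time gave 3982 to 4255 higher and 2788 to 2918 lower genes, and 11 to 12 higher and 21 to 23 lower members. DESeq2 size factors, TMM without silk gland, storage and 30 kDa genes, limma-voom, no filter and a mean count of 10 changed no call among the 55 tested members. Nor did the replicate block (13 higher and 22 lower members), although same-numbered libraries did not deviate together (correlations 0.02, -0.02 and 0.02), so the numbers give no pairing. The calls of KWMTBOMO02353, KWMTBOMO07349 and KWMTBOMO09859 were lost in DESeq2's Wald test, those of KWMTBOMO02353, KWMTBOMO07349 and KWMTBOMO09851 with upper quartile scaling (0.12, 0.01 and 0.02). Without 1 library, calls ended for KWMTBOMO02353 (siNC 1 or 2, siUFBP1 1; 0.20 to 0.25), KWMTBOMO07349 (siNC 1 or 3, siUFBP1 2 or 3; 0.13 to 0.15), KWMTBOMO09859 (siNC 2 or 3, siUFBP1 1 or 2; lowest 0.87) and KWMTBOMO02775 (siUFBP1 1 or 2; -0.10 in both), and KWMTBOMO13031 became lower without siNC 1 (-0.23). Summing models of 1 silkworm gene left 13 higher and 22 lower of 52. With no siNC count, depth limits 3 members to a lower bound. The bounds lie far above the member median and cannot move it, so with them it is -0.11 by construction.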
